A study of Homo sapiens with 16 samples.

Results

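The response of UWB1.289 to olaparib was read across all genes, as the comparison of the 4 libraries treated with olaparib with the 4 libraries that received its solvent DMSO. These are 8 of the 16 RNA libraries of the series, and they were chosen by the cell line and treatment in their labels. Of the 59428 genes in the count table, 25799 had at least 1 count in the 8 libraries and 12748 had enough counts to be tested. UWB1.289 is a serous ovarian carcinoma cell line that carries a deleterious BRCA1 mutation. Both groups were kept for 96 h in a mixture of MEGM and RPMI1640 medium with fetal bovine serum, either with 3.5 µM olaparib or with DMSO as the vehicle control. The other 8 libraries are of OVCAR3, an ovarian carcinoma line with intact BRCA1, kept for 96 h with 7.5 µM olaparib or DMSO in RPMI1640 with serum and insulin. The series asked how inhibition of PARP and the BRCA1 status act on immune-related pathways of these cells. A cell line models the tumor cell alone, without immune or stromal cells.

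Olaparib inhibits PARP1 and PARP2, enzymes that bind to DNA strand breaks and attach chains of ADP-ribose to proteins around them. Cells that lack BRCA1 repair double-strand breaks poorly by homologous recombination, and unrepaired DNA can reach the cytosol, where sensors of foreign nucleic acid start signalling through IRF and NF-kB transcription factors. IRF factors switch on interferon genes, secreted interferon acts through JAK kinases and a complex with STAT2 and IRF9, and that complex raises a large set of interferon-stimulated genes that block viruses, display antigens and attract lymphocytes. NF-kB raises chemokines, cytokines and its own inhibitors.

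The RNA was sequenced as QuantSeq 3' libraries, which are primed at the poly(A) tail and give about 1 read per transcript, near its 3' end. The libraries held between 6091959 and 7730228 counts with DMSO, with a median of 6629838.5, and between 5599571 and 6460693 with olaparib, with a median of 6196920. No pair of the 8 libraries was identical. The labels number the replicates from 1 to 4 without saying what a replicate is, so the p-values measure the spread between these libraries. Of 12 serous ovarian carcinoma markers 11 had enough counts to be tested, among them the transcription factor PAX8, EPCAM and the keratins KRT7, KRT8 and KRT18. WT1 had 0 counts in the DMSO libraries and 4 in sum with olaparib. Of 14 immune cell markers, CD3E, MS4A1, CSF1R, NKG7 and GNLY had no count in any of the 8 libraries, and of 7 fibroblast markers COL3A1, DCN and LUM had none.

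The normalized count of a gene is its count divided by the effective size of the library, scaled to the mean library. A gene was called by the 2-fold rule where its mean normalized count over the 8 libraries exceeded 10, edgeR's adjusted p was under 0.1 and the fold change in either direction exceeded 2. The any-fold rule is the same without the limit on the fold. By the 2-fold rule 246 genes were raised (1.93% of those tested) and 36 were lowered (0.282%). By the any-fold rule 983 genes were raised (7.71%) and 777 were lowered (6.1%). Raised and lowered genes were thus close in number and unlike in size. The median log2 fold change of the 983 raised genes was 0.63 and that of the 777 lowered genes was -0.41. Of the raised genes 25% passed the 2-fold rule, against 4.63% of the lowered genes. A change of more than 4-fold was found in 52 raised genes and in 1 lowered gene, EGR1. Over all tested genes the median log2 fold change was -0.00436, with a 5th percentile of -0.46 and a 95th percentile of 0.64. The normalized counts of the olaparib and DMSO libraries did not overlap in 225 of the 246 and in 29 of the 36 genes, where 7.9% of all tested genes lay wholly higher and 6.84% wholly lower with olaparib. Without olaparib replicate 1 the number of genes lowered by more than 2-fold was 56, and without DMSO replicate 2, olaparib replicate 3 or olaparib replicate 4 the number lowered at any fold was 513, 493 or 515.

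**Figure D1:**
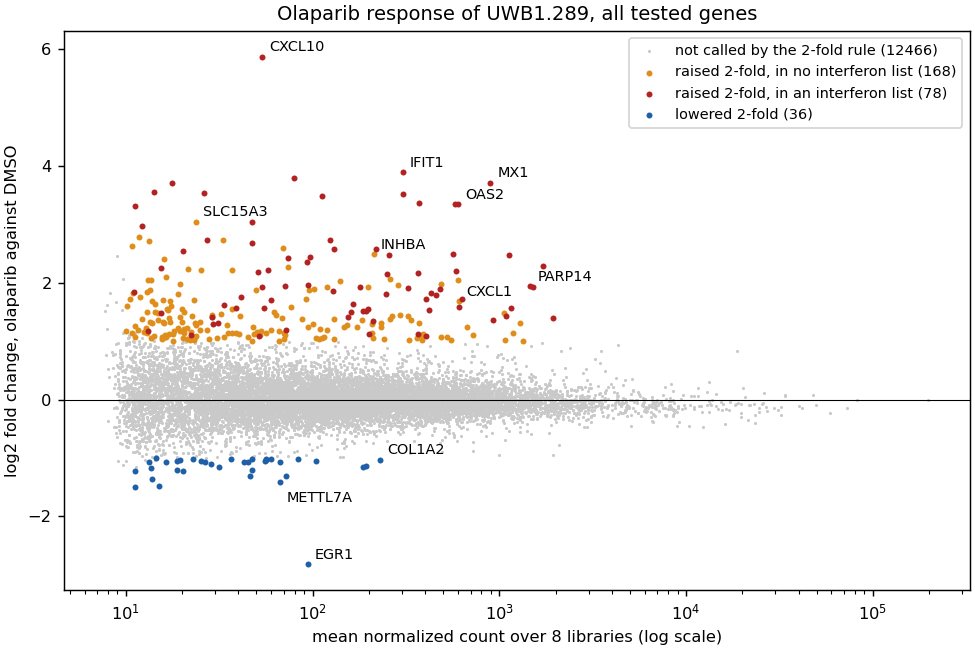
Each point is 1 of the 12748 tested genes, with the mean normalized count over the 8 UWB1.289 libraries on a log axis and the log2 fold change of olaparib against DMSO on the vertical axis. The 78 raised interferon genes (red) hold most of the highest fold changes, the 168 other raised genes (orange) lie mostly below them, and EGR1 stands alone at -2.82 among the 36 lowered genes (blue).

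The share of genes called in each direction also varied with the level of the gene. Among the 1125 tested genes with a mean normalized count above 1000, 91 were raised and 145 were lowered (8.09% and 12.9%). Among the 3476 genes between 10 and 50, 214 were raised and 77 were lowered (6.16% and 2.22%). A small change passes the test more easily at a high count, and the part of this in these shares was not tested. By gene type 906 of 11392 protein-coding genes and 34 of 507 long noncoding RNAs were raised, and 736 and 22 were lowered. The X chromosome had 10 raised and 34 lowered genes among 390 tested, with a median log2 fold change of -0.08, so that raised genes were 2.56% and lowered genes 8.72% of its genes.

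Interferon genes formed the part of the response with the largest changes. Lists of genes known to be induced by interferon, or to sense, signal or secrete it, held 237 genes. Of these 166 were tested, 121 were raised at any fold, none was lowered, and 78 were raised by more than 2-fold. Their median log2 fold change was 0.90, against -0.00436 over all tested genes. They took 0.682% ± 0.0322 (SD, n = 4) of all counts with DMSO and 1.39% ± 0.0438 with olaparib. Of the 52 genes raised by more than 4-fold, 34 were in these lists, and so were all 12 genes of the largest increases without overlap: CXCL10, IFIT1, RSAD2, MX1, CCL5, TRIM22, CXCL11, IFIT3, CMPK2, XAF1, IFI44L and OAS2. TRIM22 was rare, and without olaparib replicate 4 its mean normalized count of 9.45 was under the limit.

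Antiviral effectors, which block the replication of viruses inside the cell, rose almost as a whole. Of 51 tested members 48 were raised, 39 of them by more than 2-fold, with a median log2 fold change of 1.89. IFIT1 (ENSG00000185745, chromosome 10, 89392546 to 89406487, forward strand) binds viral RNA that lacks the cap modification of the host, and its normalized counts were 43.3, 49.9, 27.4 and 32.6 with DMSO and 599.8, 607, 538 and 531 with olaparib. The groups were far apart, and no olaparib library came near the DMSO libraries. For IFIT1 the level was 14.9-fold higher with olaparib, a log2 fold change of 3.90 (edgeR adjusted p = 1.69e-14, SE 0.142). MX1, a GTPase that traps viral nucleoproteins, had normalized counts of 87.5, 163, 97.4 and 158 with DMSO and 1731, 1369, 1649.6 and 1899.7 with olaparib. Its DMSO libraries varied, with replicates 2 and 4 the highest, by far less than the distance between the groups. The log2 fold change of MX1 was 3.71 (edgeR adjusted p = 5.14e-14, SE 0.152). OAS2 makes 2'-5' oligoadenylates, a signal of viral double-stranded RNA, and had 99.1, 126, 84.2 and 120.4 with DMSO and 1148, 1019, 1139 and 1092 with olaparib, all olaparib libraries being within a narrow band. OAS2 changed by 3.35 (edgeR adjusted p = 6.57e-15, SE 0.113) on the log2 scale. RSAD2, or viperin, makes a nucleotide that ends viral RNA chains, and CMPK2 is the kinase that supplies its substrate. RSAD2 had 14.4, 14.9, 4.06 and 9.19 with DMSO and 145, 152, 128 and 171 with olaparib (log2 fold change 3.80 (edgeR adjusted p = 6.74e-11, SE 0.236)). CMPK2 had 24, 22.3, 10.2 and 16.7 with DMSO and 213, 162, 230.2 and 221 with olaparib (log2 fold change 3.49 (edgeR adjusted p = 1.51e-11, SE 0.197)). Both were rare with DMSO and separated completely by treatment. The 3 members that were not called held MOV10 at 0.13 and TRIM5 at 0.41 on the log2 scale, and 1 of the 51 members had a log2 fold change below 0, without passing the test.

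Interferon itself was barely detectable. None of the 21 interferon genes had enough counts to be tested. IFNB1, IFNG and all interferon alpha genes listed had 0 counts in all 8 libraries. IFNL1, a type III interferon, had raw counts of 2, 1, 0 and 0 with DMSO and 9, 0, 3 and 2 with olaparib. The groups overlap, since olaparib replicate 2 had none. IFNL2 had 0 counts in the DMSO libraries and 7 in sum with olaparib, and IFNL3 had 0 and 1. At these depths a count of 0 allows up to 3 counts per library, for counting error alone, and RNA present earlier than 96 h would not be seen.

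Interferon signalling and nucleic acid sensing changed in part of their members. Of 19 tested signalling genes 9 were raised and none lowered, with a median log2 fold change of 0.43. IRF7, which is itself induced and amplifies interferon transcription, had normalized counts of 76.9, 85, 82.2 and 74.4 with DMSO and 232, 272, 239 and 253 with olaparib. Its groups were tight and did not overlap, and IRF7 changed by 1.65 (edgeR adjusted p = 1.22e-09, SE 0.121) on the log2 scale. Further raised members were STAT2, IRF1, IRF5, IRF9, IFNGR1, NMI and BATF2, from 0.38 to 2.97. The receptor genes IFNAR1 (0.17) and IFNAR2 (0.43) and the kinases JAK1 (0.18), JAK2 (0.44) and TYK2 (-0.23) did not pass the test. Of 15 tested sensing genes 8 were raised and none lowered, with a median of 0.41. With the replicate number as a block 1 was lowered, as without DMSO replicate 1 or olaparib replicate 2. IFIH1, or MDA5, a sensor of long double-stranded RNA, had 170.2, 192, 226 and 232 with DMSO and 715, 582, 832 and 729 with olaparib. Replicate 2 was the lowest of the olaparib libraries and still far above the DMSO libraries, with a log2 fold change of 1.80 (edgeR adjusted p = 1.98e-10, SE 0.118). SAMHD1, which degrades deoxynucleotides and restricts retroviruses, had 139, 225, 191 and 196 with DMSO and 615, 569, 646 and 647 with olaparib. Its libraries separated by treatment and the log2 fold change was 1.72 (edgeR adjusted p = 3.33e-10, SE 0.117). The DNA sensor IFI16 rose by 1.83 on the log2 scale.

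Genes of antigen presentation rose by less. Of 17 tested members 14 were raised, 5 of them by more than 2-fold, with a median log2 fold change of 0.70. HLA-B, a class I molecule that displays peptides to CD8 T cells, had normalized counts of 475, 566, 471 and 561 with DMSO and 1207, 1389.7, 1399.9 and 1318 with olaparib. The libraries of each group were close to each other and the groups were apart, and the log2 fold change was 1.36 (edgeR adjusted p = 1.98e-10, SE 0.0893). TAP1, a subunit of the pump that carries peptides to class I molecules, had 43.3, 34, 36.5 and 38.5 with DMSO and 159.9, 139.8, 145 and 154 with olaparib. Its 4 olaparib libraries were well above the DMSO libraries, with a log2 fold change of 1.97 (edgeR adjusted p = 2.76e-09, SE 0.151). PSMB9, a subunit of the immunoproteasome, rose by 2.19 and NLRC5, the activator of class I transcription, by 2.26 on the log2 scale. B2M, the shared light chain, rose by 0.70. HLA genes are near copies of each other and their reads could be split by the counting, so the values of single HLA genes are uncertain.

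The interferon-inducible PARP enzymes, mono-ADP-ribosyltransferases that act in antiviral defence, were raised in 5 of 6 tested members, with their partner DTX3L counted among them. The median log2 fold change of this list was 1.75. PARP14 (ENSG00000173193, chromosome 3, 122680839 to 122730840, forward strand) had normalized counts of 559, 665, 550.1 and 645 with DMSO and 2356, 2126, 2377 and 2438 with olaparib. Its libraries were alike within each group and far apart between them, and the level was 3.84-fold higher, a log2 fold change of 1.94 (edgeR adjusted p = 2.39e-13, SE 0.0863). DTX3L, a ubiquitin ligase that binds PARP9, had 543, 601, 571 and 612 with DMSO and 1765, 1487, 1820.5 and 1826 with olaparib. Replicate 2 was again the lowest olaparib library, without overlap, and DTX3L changed by 1.57 (edgeR adjusted p = 1.09e-11, SE 0.0864) on the log2 scale. PARP11 was not called, at -0.21. By contrast the DNA repair enzymes that olaparib binds did not pass the test. PARP1 had 1654, 1805, 2054 and 2055 with DMSO and 1689.5, 1749, 2039.5 and 2020 with olaparib, which overlap almost fully, with a log2 fold change of -0.01 (edgeR adjusted p = 0.953, SE 0.0888). PARP2 had a log2 fold change of -0.02 (edgeR adjusted p = 0.957, SE 0.114), with groups that also overlap.

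The guanylate-binding proteins, which attack membranes around pathogens, and apolipoproteins L were raised in all 9 tested members, 8 of them by more than 2-fold (median log2 fold change 1.85). GBP1 had normalized counts of 243, 238, 136 and 219.8 with DMSO and 991, 884, 940.4 and 1045 with olaparib. DMSO replicate 3 was low and the olaparib libraries were alike, with a log2 fold change of 2.20 (edgeR adjusted p = 2.4e-11, SE 0.129). Among 46 other interferon-induced genes 25 were raised and none lowered (median 0.55), or 1 lowered without DMSO replicate 2 or olaparib replicate 1. LGALS9, or galectin-9, a ligand of inhibitory receptors on T cells, had 12.5, 13.8, 10.2 and 14.2 with DMSO and 72.1, 94.3, 69.6 and 93.9 with olaparib. Its groups were well apart, and LGALS9 changed by 2.68 (edgeR adjusted p = 1.59e-08, SE 0.229) on the log2 scale. TNFSF10, the death ligand TRAIL, had 80.8, 132, 117 and 109 with DMSO and 412, 355, 374 and 389 with olaparib. All 4 olaparib libraries were well above the DMSO libraries, and its log2 fold change was 1.81 (edgeR adjusted p = 6.47e-10, SE 0.127).

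**Figure D2:**
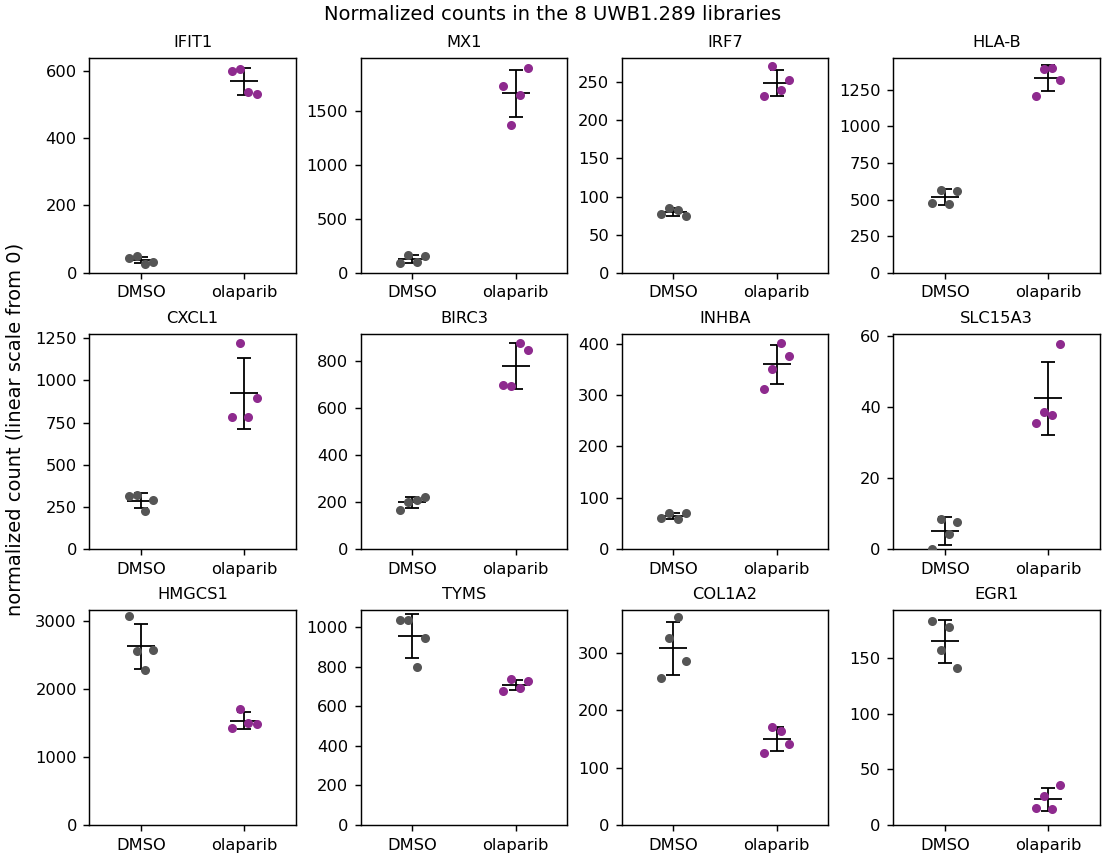
Normalized counts of 12 genes in the 4 DMSO and 4 olaparib libraries of UWB1.289, on linear axes that start at 0, with points for libraries, a bar for the mean and whiskers for the SD. In each panel the groups are apart, upward from IFIT1 to SLC15A3 and downward from HMGCS1 to EGR1, and EGR1 shows the widest relative gap of the lowered genes.

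The chemokines that interferon induces attract T cells and NK cells through receptors such as CXCR3, and all 3 tested members were raised by more than 2-fold. CXCL10 (ENSG00000169245, chromosome 4, 76021118 to 76023497, reverse strand) had normalized counts of 1.92, 1.06, 1.01 and 2.51 with DMSO and 89.9, 120.5, 113 and 101 with olaparib. With DMSO it was close to absent, at 7 raw counts in the sum of 4 libraries against 405 with olaparib, which is a ratio of 64.1 after scaling for depth (95% interval 30.8 to 160, for counting error alone). The fitted log2 fold change of CXCL10 was 5.88 (edgeR adjusted p = 4.73e-12, SE 0.307). CXCL11 had 2.89, 6.37, 0 and 6.69 with DMSO and 46, 46.6, 58.3 and 43 with olaparib, and again no library overlapped (log2 fold change 3.54 (edgeR adjusted p = 1.36e-06, SE 0.396)). CCL5 had 2.89, 4.25, 1.01 and 1.67 with DMSO and 46, 15.9, 36.8 and 32.3 with olaparib. Olaparib replicate 2 was the lowest and still above every DMSO library, with a log2 fold change of 3.70 (edgeR adjusted p = 5.56e-06, SE 0.457).

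Promoter sequences of RefSeq, build GRCh38.p14, were matched by symbol to 6884 of the 12748 tested genes (54%). They run from 250 bases before to 50 bases after the annotated start of a gene. The interferon-stimulated response element (ISRE), to which the complex with STAT2 and IRF9 binds, was searched on both strands as its core, GAAA followed by any 2 bases and GAAA again. It was found in 177 of 6884 promoters of tested genes (2.57%). Among interferon genes raised by more than 2-fold 25 of 37 promoters held it (67.6%), and among interferon genes raised by less 13 of 28 (46.4%). The lists hold genes known as interferon targets, so this share describes the lists. Among genes raised by more than 2-fold outside these lists, 1 of 76 promoters held it (1.32%), and among all lowered genes 10 of 396 (2.53%), both close to the share of all promoters. The NF-kB consensus was found in 6.44% of all promoters, in 18.9% of the interferon genes raised by more than 2-fold (7 of 37) and 32.1% of those raised by less (9 of 28), and in 17.1% of the other genes raised by more than 2-fold (13 of 76). It was in 3 of 14 promoters of the lipid synthesis list, whose genes were lowered or not called, in 4 of 5 promoters of the other chemokines and in 5 of 10 of the NF-kB list. The CArG box, to which serum response factor binds, was found in 0.886% of all promoters. It was in 2.07% of those of all raised genes (11 of 532) and in 1.26% of those of all lowered genes (5 of 396). Among interferon genes raised by more than 2-fold 3 of 37 promoters held it.

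The promoters of IFIT1 and CXCL10 are shown for the interferon response, that of CXCL1 for the chemokines described next and that of EGR1 for the largest decrease. Capitals mark the ISRE core in IFIT1, the ISRE core and the NF-kB consensus in CXCL10, the NF-kB consensus in CXCL1 and the CArG box in EGR1. The windows are chr10:89392373-89392672 on the forward strand, chr4:76023448-76023747 on the reverse strand, chr4:73869143-73869442 on the forward strand and chr5:138465229-138465528 on the forward strand, each written 5′ to 3′ along the gene.
IFIT1: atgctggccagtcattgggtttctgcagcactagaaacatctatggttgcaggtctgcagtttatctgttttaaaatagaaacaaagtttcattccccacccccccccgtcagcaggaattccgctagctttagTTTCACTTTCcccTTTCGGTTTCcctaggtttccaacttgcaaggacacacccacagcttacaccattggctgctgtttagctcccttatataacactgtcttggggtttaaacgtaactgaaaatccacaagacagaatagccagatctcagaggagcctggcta
CXCL10: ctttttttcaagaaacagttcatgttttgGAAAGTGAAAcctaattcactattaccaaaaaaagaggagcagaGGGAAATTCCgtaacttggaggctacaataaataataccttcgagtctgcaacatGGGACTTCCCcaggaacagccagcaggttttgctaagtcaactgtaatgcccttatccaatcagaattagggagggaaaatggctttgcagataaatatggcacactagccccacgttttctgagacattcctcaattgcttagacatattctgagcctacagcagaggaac
CXCL1: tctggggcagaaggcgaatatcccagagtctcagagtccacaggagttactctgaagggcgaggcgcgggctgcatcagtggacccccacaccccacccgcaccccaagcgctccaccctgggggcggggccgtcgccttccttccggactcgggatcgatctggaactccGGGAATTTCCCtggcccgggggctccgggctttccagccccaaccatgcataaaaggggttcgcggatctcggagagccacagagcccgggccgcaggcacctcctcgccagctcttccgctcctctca
EGR1: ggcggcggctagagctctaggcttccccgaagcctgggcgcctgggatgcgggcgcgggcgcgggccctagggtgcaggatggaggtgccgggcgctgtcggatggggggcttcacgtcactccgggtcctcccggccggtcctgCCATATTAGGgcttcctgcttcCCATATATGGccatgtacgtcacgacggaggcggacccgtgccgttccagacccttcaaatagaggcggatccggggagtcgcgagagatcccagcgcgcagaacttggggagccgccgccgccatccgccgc
IFIT1 held 2 ISRE cores that begin 116 and 103 bases before its start, both read on the opposite strand. CXCL10 held 1 ISRE core that begins 221 bases and 2 NF-kB matches that begin 177 and 122 bases before its start. In CXCL1 matches on both strands overlap, from 79 bases before the start, and the promoters of CXCL2 and CXCL3 held the same kind of overlapping pair from 78 and 79 bases before theirs. EGR1 held 2 CArG boxes, from 105 and 83 bases before its start. A match of letters is a description and does not show that a factor was bound.

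Chemokines not counted among the interferon-induced ones, listed as other chemokines, were raised together. All 9 tested members of this list were raised, 7 of them by more than 2-fold, with a median log2 fold change of 1.41. CXCL1, which attracts neutrophils through CXCR2, had normalized counts of 314, 318, 225 and 292 with DMSO and 786, 1225, 781 and 899 with olaparib. Olaparib replicate 2 was the highest, and the groups were apart (log2 fold change 1.68 (edgeR adjusted p = 4.53e-09, SE 0.133)). CXCL5, of the same family, had 73.1, 94.5, 77.1 and 84.4 with DMSO and 398, 286, 258 and 318 with olaparib, again without overlap (log2 fold change 1.94 (edgeR adjusted p = 1.22e-09, SE 0.142)). CXCL3 had 8.66, 11.7, 9.13 and 5.02 with DMSO and 67.9, 77.3, 39.9 and 44 with olaparib, at low counts in both groups (log2 fold change 2.73 (edgeR adjusted p = 1.79e-06, SE 0.312)). CXCL8, the main neutrophil attractant of epithelia, rose by 1.32 and CCL2, which attracts monocytes, by 1.41 on the log2 scale.

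The subunits, inhibitors and feedback genes of NF-kB were raised in 17 of 23 tested members and lowered in none, with a median log2 fold change of 0.65. BIRC3, an inhibitor of apoptosis that takes part in NF-kB signalling, had normalized counts of 164, 199, 206 and 222 with DMSO and 698, 693, 878 and 848 with olaparib. Replicates 3 and 4 were the highest with olaparib, all 4 being far above the DMSO libraries, and the log2 fold change was 1.98 (edgeR adjusted p = 1.51e-11, SE 0.112). TNFAIP3, or A20, which switches NF-kB signalling off, had 111, 99.8, 132 and 124 with DMSO and 422, 389.7, 517 and 502 with olaparib. Its 4 olaparib libraries were above its DMSO libraries, and TNFAIP3 changed by 1.97 (edgeR adjusted p = 6.34e-11, SE 0.122) on the log2 scale. The inhibitors NFKBIA (0.98) and NFKBIZ (1.90) and the subunits RELB (1.04), NFKB2 (0.45) and REL (0.48) were raised. NFKB1 (0.31) and RELA (0.22) did not pass the test. Inflammatory cytokines and acute-phase genes were raised in 10 of 11 tested members, with a median of 1.08. LTB, or lymphotoxin beta, a ligand that drives the alternative NF-kB pathway, had 647, 699.96, 946 and 657 with DMSO and 1789.9, 1774, 2132 and 1658 with olaparib. DMSO replicate 3 was the highest of its group and below every olaparib library (log2 fold change 1.32 (edgeR adjusted p = 9.93e-09, SE 0.109)). PTX3, a secreted pattern recognition protein, had 137, 149.8, 167 and 127 with DMSO and 334, 395, 440.03 and 387 with olaparib and no overlap (log2 fold change 1.43 (edgeR adjusted p = 8.38e-09, SE 0.117)). TNF rose by 1.73 on the log2 scale, and SAA1, an acute-phase protein, had 1.92, 6.37, 0 and 3.34 with DMSO and 17.8, 25, 17.4 and 22.5 with olaparib (log2 fold change 2.78 (edgeR adjusted p = 0.000515, SE 0.487)). Beside these, the myeloid marker CD14 rose from 83 to 186 raw counts in sum, and the 14 immune markers summed to 8.67 to 12.7 CPM (counts relative to the library total) with DMSO and 16.9 to 22.2 with olaparib. Their part in the rise of these genes was not tested, and the T and B cell markers CD3E and MS4A1 were at 0. In bulk libraries fewer cells that express a gene and less of its RNA per cell cannot be told apart.

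Of the 246 genes raised by more than 2-fold, 168 were in no interferon list and 128 in none of the lists used here. The lists may not hold every interferon-induced gene, and whether genes outside them respond to interferon was not tested. The largest increases among the 168 without overlap, next to SAA1, CXCL3 and CXCL2, were SLC15A3, NEURL3, MIR3142HG, B3GNT7, INHBA, IL1RN, CA8, ESM1 and TNFRSF9. SLC15A3, a lysosomal transporter of histidine and bacterial peptides, had normalized counts of 0, 8.5, 4.06 and 7.52 with DMSO and 35.5, 38.6, 37.9 and 57.7 with olaparib. Olaparib replicate 4 was the highest, and SLC15A3 was near its limit of detection with DMSO (log2 fold change 3.05 (edgeR adjusted p = 2.64e-05, SE 0.419)). INHBA (ENSG00000122641, chromosome 7, 41667168 to 41705834, reverse strand) encodes the subunit of activin A, a secreted factor of the TGF-beta family, and had 59.6, 69, 57.9 and 69.4 with DMSO and 312, 349.97, 401 and 376 with olaparib. The DMSO libraries were close to each other and far below the olaparib libraries, so that INHBA was 5.61-fold higher with olaparib (log2 fold change 2.49 (edgeR adjusted p = 2.69e-12, SE 0.126)). IL1RN, the natural antagonist of the interleukin-1 receptor, had 10.6, 28.7, 27.4 and 33.4 with DMSO and 103, 107, 137 and 142 with olaparib. DMSO replicate 1 was the lowest of its group, and IL1RN changed by 2.28 (edgeR adjusted p = 2.57e-07, SE 0.23) on the log2 scale. B3GNT7, an enzyme that extends sugar chains on glycoproteins, had 17.3, 21.2, 20.3 and 20.1 with DMSO and 137, 114, 112 and 115 with olaparib, tight in both groups (log2 fold change 2.59 (edgeR adjusted p = 6.78e-10, SE 0.183)). TNFRSF9, or 4-1BB, a costimulatory receptor known from T cells, had 2.89, 3.19, 8.12 and 10.03 with DMSO and 29.3, 17, 25.6 and 35.2 with olaparib, apart at low counts (log2 fold change 2.10 (edgeR adjusted p = 0.00108, SE 0.394)). The call of MIR3142HG, a host gene of microRNAs, rested on the limit for the mean count, which fell to 9.08 without olaparib replicate 3 and to 8.89 without olaparib replicate 4.

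**Figure D3:**
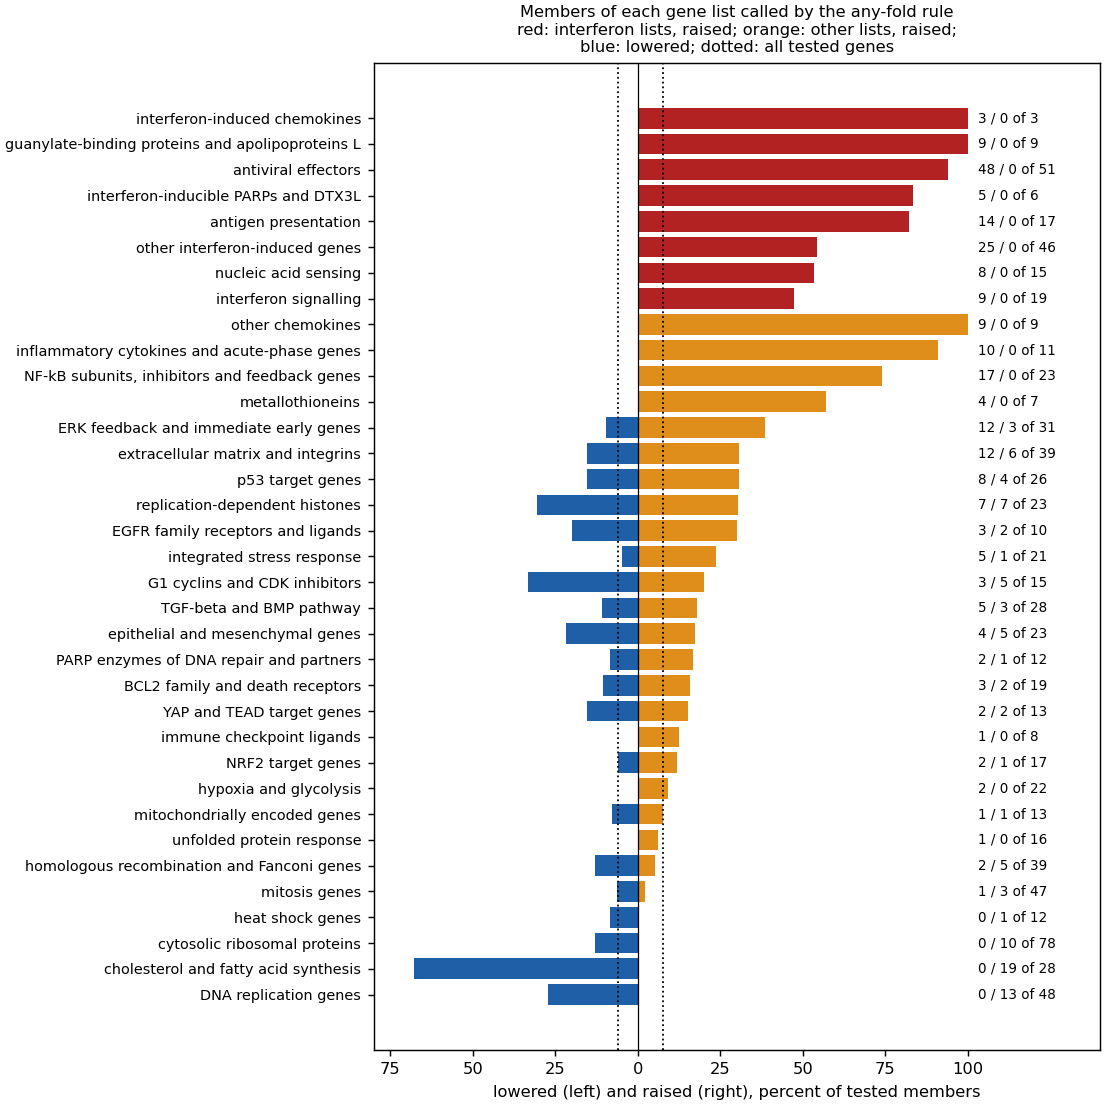
Horizontal bars give the percent of tested members of each gene list that were raised (to the right, red for interferon lists and orange for others) or lowered (to the left, blue) by the any-fold rule in UWB1.289, with the counts at the right edge and dotted lines at the shares of all tested genes, 7.71% and 6.1%. Interferon, chemokine and NF-kB lists reach far to the right with nothing to the left, and cholesterol and fatty acid synthesis reaches farthest to the left.

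Lowered genes were many and changed little, with 1 exception. EGR1 (ENSG00000120738, chromosome 5, 138465479 to 138469303, forward strand), an immediate early transcription factor that growth factor signals raise through ERK and serum response factor, had normalized counts of 184, 157, 178 and 141 with DMSO and 15.7, 26.1, 14.3 and 36.2 with olaparib. The olaparib libraries, of which replicates 2 and 4 were the highest, were all far below the DMSO libraries. EGR1 was 7.08-fold lower with olaparib, a log2 fold change of -2.82 (edgeR adjusted p = 1.73e-09, SE 0.211). METTL7A, a methyltransferase, had 109, 108, 85.3 and 83.6 with DMSO and 24, 55.7, 45 and 21.5 with olaparib. Its olaparib libraries spread more than its DMSO libraries, without overlap (log2 fold change -1.41 (edgeR adjusted p = 0.00029, SE 0.234)). SCX, a transcription factor of tendon and matrix genes, had 311, 285, 216 and 254 with DMSO and 134, 108, 103 and 137 with olaparib (log2 fold change -1.14 (edgeR adjusted p = 2.84e-06, SE 0.134)). KLHL14 had 66.4, 74.4, 47.7 and 76.1 with DMSO and 26.1, 26.1, 18.4 and 43 with olaparib (log2 fold change -1.21 (edgeR adjusted p = 0.00195, SE 0.241)). In each of these genes all DMSO libraries were above all olaparib libraries, which was a condition for naming them among the largest decreases. The 12 largest decreases without overlap also held CACNA2D3, the linker histone H1-4, WNT5A, SMOC2, HIF3A, TMEM132D and TRIM45, from -1.37 to -1.07. WNT5A, HIF3A, TMEM132D and CACNA2D3 were rare. With all 8 libraries in DESeq2, WNT5A (-1.25, adjusted p = 0.13), HIF3A (-1.18, adjusted p = 0.13) and TMEM132D (-1.09, adjusted p = 0.16) were not called. WNT5A was not called without any 1 of 6 of the libraries (-0.90, edgeR adjusted p = 0.163, without olaparib replicate 2), and HIF3A not without any 1 of 5 (-0.84, edgeR adjusted p = 0.215, without olaparib replicate 3). TMEM132D was not called without any 1 of 7 (-0.80, edgeR adjusted p = 0.205, without olaparib replicate 1), and CACNA2D3 not without DMSO replicate 2 (-1.003, edgeR adjusted p = 0.169) or olaparib replicate 4 (-1.26, edgeR adjusted p = 0.108). TRIM45 fell short of 2-fold without DMSO replicate 1 (-0.84) or olaparib replicate 4 (-0.99). Of the 36 genes lowered by more than 2-fold, 30 were in none of the lists.

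Synthesis of cholesterol and fatty acids was the list with the largest share of lowered members. Of 28 tested genes 19 were lowered and none was raised, with a median log2 fold change of -0.46 and none past 2-fold. These genes share the transcription factors SREBF1 and SREBF2, which act when sterols are scarce. HMGCS1 (ENSG00000112972, chromosome 5, 43287470 to 43313512, reverse strand), which makes HMG-CoA at the entry of the mevalonate pathway, had normalized counts of 3081, 2568, 2289 and 2585 with DMSO and 1432, 1716, 1502 and 1483 with olaparib. DMSO replicate 1 was the highest library and DMSO replicate 3, the lowest of its group, stayed above every olaparib library. HMGCS1 was 1.72-fold lower with olaparib, a log2 fold change of -0.78 (edgeR adjusted p = 2.16e-06, SE 0.0901). FADS1, a desaturase of long polyunsaturated fatty acids, had 1707, 1804, 1582 and 1589.8 with DMSO and 1226, 1189.7, 1093 and 1069 with olaparib. Its groups were tight and apart, and FADS1 changed by -0.55 (edgeR adjusted p = 5.72e-05, SE 0.0796) on the log2 scale. Along the sterol pathway MVD, FDPS, FDFT1, SQLE, LSS, MSMO1 and DHCR7 fell by 0.27 to 0.62 on the log2 scale, and among fatty acid genes ACLY, FASN, SCD, FADS2 and ELOVL6 fell by 0.31 to 0.74. The regulators INSIG1 (-0.71) and SREBF2 (-0.45) were lowered too. IDI1 (-0.27) and SREBF1 (-0.47) did not pass the test. With 1 of the 8 libraries left out, 16 to 23 members were lowered. The sterol regulatory element, searched as TCACCCCAC on both strands, was in 1 of 14 matched promoters of this list and in 29 of 6884 promoters of tested genes (0.421%).

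DNA replication genes were lowered in 13 of 48 tested members and raised in none, with a median log2 fold change of -0.18. Without olaparib replicate 4 the number was 8. TYMS, thymidylate synthase, had normalized counts of 1039, 1038, 801 and 946 with DMSO and 680.2, 737, 692 and 726 with olaparib. DMSO replicate 3 was low, and all olaparib libraries were below it (log2 fold change -0.43 (edgeR adjusted p = 0.00296, SE 0.0899)). PCNA, the sliding clamp of DNA polymerases, had 655, 657, 631 and 699.6 with DMSO and 469, 552, 514 and 509 with olaparib and no overlap (log2 fold change -0.37 (edgeR adjusted p = 0.00661, SE 0.0856)). The other lowered members were the helicase subunits MCM3, MCM4, MCM6 and MCM7, CDT1 and GINS2 of origin firing, the clamp loader subunit RFC4, POLA1, the nucleotide enzymes RRM1 and DUT, and E2F1, which fell by 0.20 to 0.50 on the log2 scale. The E2F site, searched as TTTCGCGC or TTTGGCGC on both strands, was in 11 of 31 promoters of this list (35.5%), in 2.21% of all promoters and in 4.29% of those of all lowered genes.

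Mitosis genes were raised in 1 and lowered in 3 of 47 tested members (median log2 fold change 0.03), and with the replicate number as a block in 3 and 5. In the main fit these shares were 2.13% and 6.38%, below and close to the 7.71% and 6.1% of all tested genes. The raised count was 0 without DMSO replicate 1 or 3 or olaparib replicate 4 and 3 without olaparib replicate 2. Among the lowered ones were SPC24 and SPC25, subunits of the kinetochore complex NDC80, with 273, 293, 262 and 306 with DMSO and 197, 193, 231 and 196 with olaparib for SPC25 (log2 fold change -0.47 (edgeR adjusted p = 0.00575, SE 0.107)). Olaparib replicate 3 of SPC25 was above the other 3. The G1 cyclins and CDK inhibitors went both ways, with 3 raised and 5 lowered of 15 tested, or 3 lowered without DMSO replicate 3 or 4 or olaparib replicate 3. CDKN2B, or p15, an inhibitor of CDK4 and CDK6, had 117, 129, 67 and 85.3 with DMSO and 217, 192, 138 and 148 with olaparib (log2 fold change 0.81 (edgeR adjusted p = 0.00514, SE 0.18)), and its relative CDKN2C, or p18, had 61.6, 81.8, 46.7 and 67.7 with DMSO and 40.8, 22.7, 37.9 and 29.3 with olaparib (log2 fold change -0.97 (edgeR adjusted p = 0.00698, SE 0.225)). Each separated the groups, in opposite directions. CCND2, a cyclin of G1, had 3232, 2966, 3530 and 3449 with DMSO and 2514, 2533, 2747 and 2728 with olaparib, small in change and without overlap (log2 fold change -0.32 (edgeR adjusted p = 0.00825, SE 0.0768)).

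Genes of homologous recombination and the Fanconi pathway were raised in 2 and lowered in 5 of 39 tested members, with a median log2 fold change of -0.09. These are 5.13% and 12.8%, where 7.71% of all tested genes were raised and 6.1% lowered. The lowered count was 2 without DMSO replicate 1, 2 or 4 or olaparib replicate 3 and 3 without olaparib replicate 1 or 4, and the raised count was 1 without DMSO replicate 1 or olaparib replicate 1 and 0 without DMSO replicate 3. BRCA1 had normalized counts of 146, 136, 159 and 179.7 with DMSO and 136, 139, 150.4 and 160.3 with olaparib, which overlap, and a log2 fold change of -0.09 (edgeR adjusted p = 0.73, SE 0.125). FANCI, a subunit of the complex that marks crosslinked DNA, had 571, 559.8, 499 and 536 with DMSO and 392, 429.5, 399 and 442 with olaparib (log2 fold change -0.38 (edgeR adjusted p = 0.00741, SE 0.0891)). PARP enzymes of DNA repair and their partners were raised in 2 and lowered in 1 of 12 tested members (0 lowered without DMSO replicate 1 or olaparib replicate 3 or 4). Raised were ADPRS, which removes ADP-ribose from serine, with 278, 257, 261 and 257 with DMSO and 368, 418, 315 and 382 with olaparib (log2 fold change 0.49 (edgeR adjusted p = 0.00296, SE 0.103)), and the tankyrase TNKS2, with 67.3, 68, 65 and 58.5 with DMSO and 88.8, 108, 86 and 106 with olaparib (log2 fold change 0.59 (edgeR adjusted p = 0.0179, SE 0.155)). Both were apart between groups.

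Targets of p53 were raised in 8 and lowered in 4 of 26 tested members, with a median log2 fold change of -0.01, and 2 were lowered without DMSO replicate 2 or olaparib replicate 3. GADD45A, a stress sensor that arrests the cycle, had normalized counts of 659, 801, 678 and 834 with DMSO and 1496, 1536, 1688 and 1815 with olaparib (log2 fold change 1.14 (edgeR adjusted p = 8.15e-09, SE 0.0928)). GDF15, a stress cytokine, had 914, 711, 649 and 719 with DMSO and 1396, 1288, 1307 and 1161 with olaparib (log2 fold change 0.78 (edgeR adjusted p = 6.38e-06, SE 0.0977)). RRM2B, a subunit of ribonucleotide reductase, went the other way, with 136, 142, 108 and 128 with DMSO and 88.8, 70.4, 48.1 and 76.3 with olaparib (log2 fold change -0.85 (edgeR adjusted p = 0.00165, SE 0.167)). These 3 genes separated the groups. CDKN1A, or p21, rose by 1.07, and MDM2 (-0.15) and BAX (-0.13) did not pass the test.

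The ERK feedback and immediate early genes were raised in 12 and lowered in 3 of 31 tested members, with a median log2 fold change of 0.13, so EGR1 did not move with most of its list. ATF3, a stress-induced transcription factor, had normalized counts of 41.4, 53.1, 32.5 and 36.8 with DMSO and 177, 137, 129 and 156 with olaparib (log2 fold change 1.88 (edgeR adjusted p = 4.66e-08, SE 0.171)). KLF6, a zinc finger factor, had 977, 1025, 969 and 1104 with DMSO and 1828, 1968, 1939 and 1942 with olaparib (log2 fold change 0.91 (edgeR adjusted p = 1.19e-08, SE 0.0765)). DUSP6, the phosphatase that ERK induces against itself, had 964, 918, 941 and 945 with DMSO and 621, 847, 626 and 673 with olaparib (log2 fold change -0.45 (edgeR adjusted p = 0.00326, SE 0.0943)). Olaparib replicate 2 of DUSP6 was nearest to the DMSO libraries and still below them. The third lowered member was SPRY1, at -0.79. Of 10 tested EGFR family receptors and ligands 3 were raised and 2 lowered. Without any 1 of 6 of the libraries 0 or 1 was lowered (0 without DMSO replicate 4 or olaparib replicate 1, 1 without DMSO replicate 1 or 2 or olaparib replicate 3 or 4). HBEGF had 111, 126, 162 and 135 with DMSO and 350.03, 273, 344 and 363 with olaparib (log2 fold change 1.32 (edgeR adjusted p = 1.3e-07, SE 0.127)) and AREG, amphiregulin, had 591, 691, 794 and 851 with DMSO and 961, 1272, 1361 and 1355 with olaparib (log2 fold change 0.76 (edgeR adjusted p = 8.69e-05, SE 0.114)), both ligands of EGFR and both apart between groups.

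In the TGF-beta and BMP pathway 5 of 28 tested members were raised and 3 lowered, or 1 lowered without DMSO replicate 2 or olaparib replicate 3. INHBB, the sister subunit of INHBA, had normalized counts of 1680.2, 1806, 1319 and 1357 with DMSO and 931, 1126, 981 and 1142 with olaparib (log2 fold change -0.56 (edgeR adjusted p = 0.000752, SE 0.101)). The activin subunits thus moved in opposite directions, each without overlap. Extracellular matrix and integrin genes were raised in 12 and lowered in 6 of 39 tested members (median log2 fold change 0.22). COL1A2, a chain of collagen I, had 257, 327, 363 and 286 with DMSO and 126, 170.4, 165 and 141 with olaparib. DMSO replicate 1, the lowest of its group, was well above the olaparib libraries (log2 fold change -1.03 (edgeR adjusted p = 6.24e-06, SE 0.128)), and the change fell short of 2-fold without DMSO replicate 3 (-0.95) or olaparib replicate 1 (-0.96). COL1A2 is also 1 of 7 fibroblast markers, which summed to 43.1 to 58.7 CPM with DMSO and 25.6 to 32.3 with olaparib, with the defining markers DCN, LUM and COL3A1 at 0. THBS1, thrombospondin, had 302, 388, 269.98 and 401 with DMSO and 704, 619, 704 and 826 with olaparib (log2 fold change 1.07 (edgeR adjusted p = 1.21e-06, SE 0.118)), and fell short of 2-fold without DMSO replicate 3 (0.97) or olaparib replicate 4 (0.99). The laminin chains LAMA3 (0.80) and LAMB3 (0.85) were raised and LAMA5 (-0.64) was lowered. Epithelial and mesenchymal genes were raised in 4 and lowered in 5 of 23 tested members. The lowered count was 1 without DMSO replicate 1, 2 without DMSO replicate 4 or olaparib replicate 3 and 3 without DMSO replicate 2 or olaparib replicate 4. MUC1, a membrane mucin, had 276, 441, 307 and 429 with DMSO and 661, 817, 762 and 716 with olaparib (log2 fold change 1.02 (edgeR adjusted p = 4.55e-06, SE 0.125)), below 2-fold without DMSO replicate 1 (0.91), DMSO replicate 3 (0.95) or olaparib replicate 2 (0.97).

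Replication-dependent histone genes changed in both directions. Of 23 tested members 7 were raised and 7 lowered, 5 and 3 of them by more than 2-fold, with a median log2 fold change of 0.38. Counts summed over all 62 genes of the list went the other way. They were 441 to 760 CPM with DMSO and 271 to 469 with olaparib, ranges that overlap slightly. Of the linker histones 4 of 5 were lowered and none raised, with a median of -1.15, and of the H2B genes 5 of 8 were raised and none lowered, with a median of 0.94 and a range of -1.16 to 1.40. The H2A genes had 1 raised and 2 lowered of 5 (-0.90 to 1.01), the H4 genes 1 and 1 of 3 (-0.95 to 1.82), and neither of the H3 genes was called. H2BC5 had normalized counts of 25, 47.8, 34.5 and 38.5 with DMSO and 77.3, 97.7, 69.6 and 88 with olaparib (log2 fold change 1.19 (edgeR adjusted p = 0.000383, SE 0.203)). H4C3, the most abundant of those named, had 1739.8, 2360.1, 3169.7 and 2943 with DMSO and 1109, 876, 1527 and 1778 with olaparib (log2 fold change -0.95 (edgeR adjusted p = 0.000739, SE 0.171)). H1-3 had 37.5, 74.4, 86.3 and 64.4 with DMSO and 24, 17, 24.6 and 39.1 with olaparib (log2 fold change -1.30 (edgeR adjusted p = 0.00252, SE 0.267)). H2BC5 separated the groups. In H4C3 and H1-3 they overlapped, since olaparib replicate 4 was above DMSO replicate 1, the lowest of its group. H1-4 fell short of 2-fold without DMSO replicate 3 (-0.94). The messages of these genes normally end in a stem-loop without a poly(A) tail, so libraries primed at poly(A) see only the polyadenylated part of them, and near-identical copies make single genes uncertain. Whether total histone RNA changed was not tested.

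**Figure D4:**
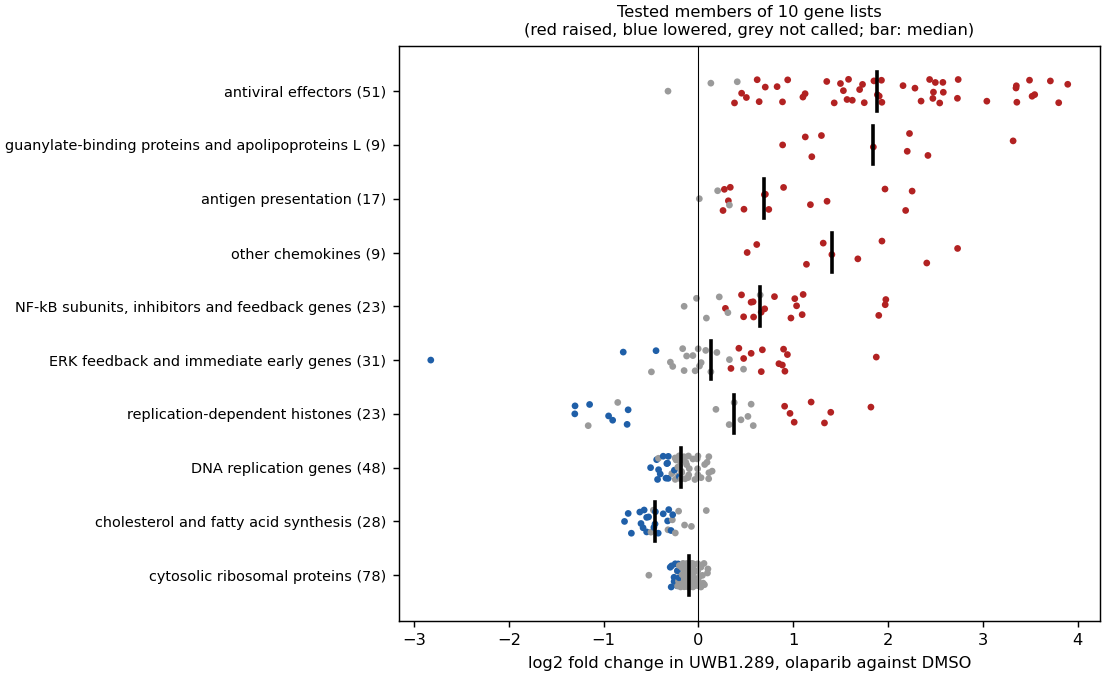
Each point is a tested member of 1 of 10 gene lists, placed by its log2 fold change of olaparib against DMSO in UWB1.289, colored by its call, with a bar at the median of the list. Antiviral effectors spread widely around 1.89, lipid synthesis sits in a narrow band around -0.46, and histone genes lie on both sides of 0 with no point between H1-2 at -0.74 and H2BC4 at 0.18.

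Among the most abundant transcripts changes were small. KRT18, an epithelial keratin, had normalized counts of 28388, 25964, 27086 and 25484 with DMSO and 23505, 20621, 18526 and 18300 with olaparib (log2 fold change -0.40 (edgeR adjusted p = 0.0025, SE 0.0822)). ACTG1, gamma actin, had 24278, 24756, 23485 and 23084 with DMSO and 18322, 20134, 18295 and 18266 with olaparib (log2 fold change -0.35 (edgeR adjusted p = 0.00206, SE 0.07)). Both fell without overlap, as did RPL7A, a protein of the large ribosomal subunit, at -0.30. Of 78 tested cytosolic ribosomal protein genes 10 were lowered and none raised, with a median log2 fold change of -0.10, and 20 were lowered with the replicate number as a block. The count ranged from 3 without olaparib replicate 4 to 19 without olaparib replicate 2, and was 4 without DMSO replicate 1 or olaparib replicate 3 and 5 without DMSO replicate 2 or 3. Of the raised abundant genes MT-TL1, a mitochondrial transfer RNA for leucine, had 12100, 12873, 13785 and 14605 with DMSO and 25420, 17528, 27044 and 25550 with olaparib (log2 fold change 0.84 (edgeR adjusted p = 6.14e-06, SE 0.104)). Olaparib replicate 2 was well below the other 3 and above the DMSO libraries. The libraries were primed at poly(A), so whether counts at mitochondrial transfer RNA genes came from mature transfer RNA was not tested. MT-CO1, a subunit of cytochrome oxidase, had 11882, 12308, 11409 and 12132 with DMSO and 14725, 14866, 14288 and 14990 with olaparib (log2 fold change 0.30 (edgeR adjusted p = 0.00567, SE 0.0682)). Of 15 tested mitochondrial transfer RNAs 7 were raised and none lowered (median 0.37), while the 13 mitochondrial protein genes had 1 raised and 1 lowered (3 and 2 with the replicate number as a block). Without olaparib replicate 2 these were 2 and 2, and no such gene was lowered without any 1 of the other libraries except DMSO replicate 4. The mitochondrial share of all counts was 11.2% ± 0.188 (SD, n = 4) with DMSO and 11.4% ± 0.770 with olaparib, which differ by less than the spread.

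The other lists changed in few members, and their small counts moved with single libraries. Over all tested genes 7.71% were raised and 6.1% lowered. Immune checkpoint ligands were raised in 1 of 8 tested members, and in 4 with the replicate number as a block. The count was 0 without DMSO replicate 1 or 2 or olaparib replicate 1 or 4, and without DMSO replicate 3 it was 2, with 1 lowered. The integrated stress response had 5 raised and 1 lowered of 21, among them SLC3A2, an amino acid transporter subunit, at 0.43 (edgeR adjusted p = 0.00165, SE 0.0846). Without olaparib replicate 4 it had 3 raised, and none lowered without that library, DMSO replicate 1, 2 or 4 or olaparib replicate 3. The unfolded protein response had 1 raised of 16 (0 without DMSO replicate 3, 2 without olaparib replicate 1), and heat shock genes 1 lowered of 12 (2 with the replicate number as a block, and 1 raised and 2 lowered without olaparib replicate 1). NRF2 targets had 2 raised and 1 lowered of 17 (4 lowered with the replicate number as a block). For these targets the raised count was 0 without DMSO replicate 2 and 1 without any 1 of the other libraries except olaparib replicate 4, and the lowered count was 0 without DMSO replicate 1 or olaparib replicate 3 or 4, 2 without DMSO replicate 3 and 4 without olaparib replicate 1. Metallothioneins, which bind zinc and copper, were raised in 4 of 7 and lowered in none (1 lowered with the replicate number as a block or without olaparib replicate 2). MT1X had normalized counts of 76, 70.1, 63.9 and 60.2 with DMSO and 148, 101, 103 and 142 with olaparib (log2 fold change 0.88 (edgeR adjusted p = 0.000936, SE 0.162)), and copies of this family may share reads. Hypoxia and glycolysis genes had 2 raised of 22 (and 2 lowered without olaparib replicate 1), the BCL2 family and death receptors 3 raised and 2 lowered of 19, and targets of YAP and TEAD 2 raised and 2 lowered of 13. In the BCL2 list 1 was lowered without DMSO replicate 2 and 0 without DMSO replicate 3 or 4 or olaparib replicate 1, 3 or 4. In the YAP list 1 was raised without DMSO replicate 1, 3 or 4 or olaparib replicate 3 or 4, and 1 was lowered without DMSO replicate 1, 2 or 3 or olaparib replicate 3 and 0 without DMSO replicate 4 or olaparib replicate 1 or 4. BIK, a killer protein of the BCL2 family, had 38.5, 49.9, 68 and 43.5 with DMSO and 89.9, 86.4, 114 and 105 with olaparib (log2 fold change 0.99 (edgeR adjusted p = 0.00102, SE 0.185)). ANKRD1, a YAP target, had 2929.5, 2361, 2714 and 2841 with DMSO and 4589, 3570.2, 4375 and 4251 with olaparib (log2 fold change 0.63 (edgeR adjusted p = 3.03e-05, SE 0.0875)). These 3 genes were apart between the groups.

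Whether olaparib acted differently in UWB1.289 and in OVCAR3 was tested over all 16 libraries, as the log2 fold change in UWB1.289 minus that in OVCAR3. The lines are separate cell lines that differ in BRCA1 status, olaparib dose and medium, among other things, and these parts cannot be told apart. Of 14243 genes tested, 285 had a higher effect in UWB1.289 by more than 2-fold (2%) and 236 a lower one (1.66%). Of the 166 interferon genes 52 had a higher effect in UWB1.289 and 1 a lower one. The latter was IL4R, a cytokine receptor named after its values were seen, with a difference of -1.21 (edgeR adjusted p = 0.00316, SE 0.263). Among the antiviral effectors 29 of 51 differed, all higher in UWB1.289, with a median log2 fold change of 1.89 in UWB1.289 and 0.21 over the 44 tested in OVCAR3. Of those 44, 17 were raised and 1 lowered at any fold in OVCAR3. Over all interferon lists, 68 of the 144 genes tested there were raised and 6 lowered, with a median of 0.31. Of all genes tested in OVCAR3, 15.3% were raised and 15.9% lowered. For MX1 the log2 fold change was 3.71 and 0.80 in the lines, a difference of 2.92 (edgeR adjusted p = 9.69e-11, SE 0.21). For IFI44L it was 3.35 and 0.19, a difference of 3.17 (edgeR adjusted p = 2.14e-11, SE 0.206). For HLA-B, in contrast, it was 1.36 and 1.49, and the difference of -0.13 (edgeR adjusted p = 0.705, SE 0.148) did not pass the test. OAS2, CXCL10, CXCL11 and CCL5 had too few counts to be tested in OVCAR3 alone. Their counts there were 1 and 29, 1 and 24, 1 and 9, and 0 and 7 in sum with DMSO and olaparib. Their differences of -0.87, 1.92, 0.95 and -0.14 (edgeR adjusted p = 0.611, 0.71, 0.937 and 0.727) did not pass the test. RSAD2, TRIM22, CMPK2 and XAF1, also untested in OVCAR3 alone, had a higher effect in UWB1.289.

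The effect of olaparib on other lists differed between the lines in either direction. None of the 43 tested genes of the other chemokines, NF-kB and inflammatory lists had a higher effect in UWB1.289, and 11 had a lower one. BIRC3 rose by 1.98 in UWB1.289 and 3.51 in OVCAR3, a difference of -1.53 (edgeR adjusted p = 0.0142, SE 0.398). PTX3 rose by 1.43 and 4.13, a difference of -2.70 (edgeR adjusted p = 8.49e-09, SE 0.249). Of the 31 ERK feedback and immediate early genes 11 had a lower effect in UWB1.289 and none a higher one. DUSP6 fell in UWB1.289 and rose by 2.46 in OVCAR3, a difference of -2.91 (edgeR adjusted p = 2.14e-11, SE 0.191). Outside the interferon lists 191 of 12582 tested genes had a higher effect in UWB1.289 and 232 a lower one. In the lipid synthesis list 20 of 27 tested genes were lowered in OVCAR3, where 15.9% of 13031 tested genes were lowered at any fold and 15.3% raised, and no member differed between lines by more than 2-fold. HMGCS1 was -0.96 there, a difference of 0.19 (edgeR adjusted p = 0.418, SE 0.124). DNA replication genes, lowered in 13 of 48 in UWB1.289, were raised in 20 and lowered in 1 of 48 in OVCAR3, and 1 member differed by more than 2-fold. Histone genes were lowered in 14 of 21 and raised in none in OVCAR3, and 6 of 23 had a higher effect in UWB1.289 and none a lower one. H2AC6 rose by 1.01 in UWB1.289 and was -1.11 in OVCAR3, a difference of 2.12 (edgeR adjusted p = 5.59e-09, SE 0.191). Of the 36 genes lowered by more than 2-fold in UWB1.289, 29 were tested in OVCAR3, where 13 were lowered and 2 raised.

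**Figure D5:**
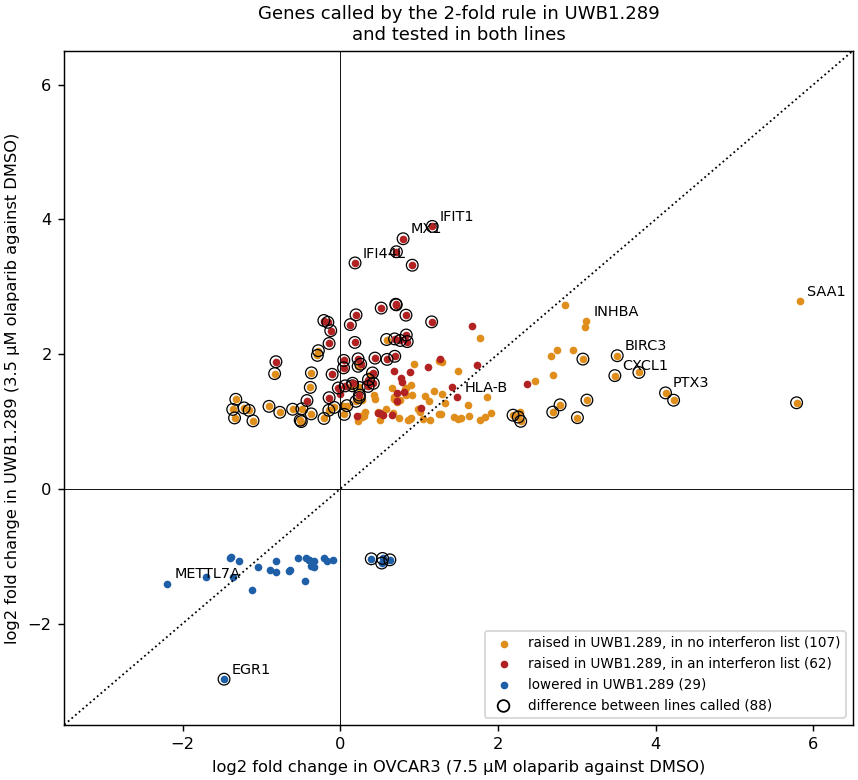
The 198 genes called by the 2-fold rule in UWB1.289 and tested in both lines are placed by their log2 fold change in OVCAR3 (horizontal) and UWB1.289 (vertical), with a dotted line of equal change and a ring where the difference between lines was called. Most of the 62 interferon genes (red) lie above the line near an OVCAR3 change of 0.53 in the median, and 88 genes carry a ring.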

How the data were processed

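The deposited values are raw counts per gene. The authors used BBDuk to trim single-end QuantSeq 3' reads, STAR (2.7.9a per the submitters' processing notes) to align to hg38, and featureCounts (2.0.0) with GENCODE annotation to count; strand and multiple matches are not given in the sources used here. Groups came from the sample labels. The 8 UWB1.289 libraries were tested with edgeR 4.0.16 in R 4.3.3 (filterByExpr, TMM, quasi-likelihood F test, Benjamini-Hochberg over 12748 genes), where the study used DESeq2. SE was derived from F and the log2 fold change (their ratio, with the root of F). The difference between lines is an interaction contrast over 16 libraries. The members and the gene lists were chosen with earlier results of these data known, and lists are described by counts and medians alone. The fits were tested on simulated data.

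Named genes are the 12 largest increases and decreases by the 2-fold rule without overlap, the 12 largest increases outside interferon lists, the 6 most abundant raised and lowered, up to 2 members per direction of each list by adjusted p, and PARP1, PARP2 and BRCA1. Others, given as further members of a list, were named after their values were seen. Genes with clone-based names were counted and not named, and some genes that the rule chose are not reported here. Of the tested symbols 95.1% were in GENCODE release 44, used for coordinates on hg38.

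Same-numbered DMSO and olaparib libraries deviated together (correlations of 0.135 to 0.248 over 9159 genes, after removing group means), against -0.264 to 0.189 for different numbers. The ranges overlap, so a pairing by replicate number is only a hint from the data and is not in the labels. The values given come from the fit without pairs, except where the replicate block is named or another alternative is given. Alternatives were DESeq2 1.42.0, its size factors, no filter on low counts, a mean count above 50, adjusted p below 0.05, no fold threshold, all 16 libraries in 1 fit, the replicate block and leaving out each library. Leaving out libraries for the counts per list was added after seeing the data.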

Additional observations from a re-analysis of the deposited data

Results flagged for a closer look

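Among the genes named, each group of 4 libraries was checked for a library far from the other 3. Chance flags about 1 in 20 groups, and 11 of 260 were found. SLC48A1 stood out in both groups at replicate 1, with a normalized count of 2172 with DMSO and 1762 with olaparib. The other libraries were at 1628 to 1666 and at 1276 to 1309. With DMSO, IFIT3 was high in replicate 2 (59.5 against 44.3 to 46.2) and HSPE1 was low in replicate 4 (2397 against 2608 to 2612). With olaparib, replicate 2 was high for ACTG1 (20134 against 18270 to 18320) and low for MT-TL1 (17528 against 25420 to 27040). Replicate 1 was high for B3GNT7 (137 against 111 to 115). Replicate 3 was high for SPC25 (231 against 193 to 198) and low for SLC3A2 (1291 against 1525 to 1546). Replicate 4 was high for SLC15A3 (57.7 against 35.5 to 38.6) and low for TUBA1B (18636 against 21770 to 22180). SLC48A1 was the only 1 of these genes whose groups overlapped, its olaparib replicate 1 being inside the range of the DMSO libraries.

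Of the 130 genes named, 59 had an olaparib effect that differed between UWB1.289 and OVCAR3 in the interaction contrast of edgeR, at adjusted p values from 2.14e-11 to 0.099 over 14243 genes. The effect was higher in UWB1.289 for 36 and lower for 23. The values are log2 fold changes in UWB1.289 minus those in OVCAR3. Among interferon genes the difference was 3.17 for IFI44L, 2.92 for MX1, 2.81 for IFIT3, 2.73 for IFIT1, 2.16 for LGALS9, 1.75 for IFIH1, 1.5 for PARP14, 1.44 for GBP1, 1.31 for SAMHD1, 1.28 for TAP1, 1.15 for DTX3L, 0.87 for IRF7, 0.75 for GBP5 and 0.69 for TNFSF10. It was 3.70 for TRIM22, 3.00 for RSAD2, 2.74 for CMPK2 and 2.65 for XAF1, whose OVCAR3 libraries held too few counts to be tested in that line (26 and 25, 21 and 39, 20 and 36, and 5 and 9 in sum with DMSO and olaparib), so these values rest on few counts. Likewise it was 3.32 for IL1RN, 2.56 for SLC15A3, 2.20 for B3GNT7 and -3.10 for TNFRSF9, with 20 and 10, 24 and 36, 31 and 43, and 1 and 57 counts in OVCAR3.

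Among other genes with a higher effect in UWB1.289 the difference was 2.12 for H2AC6, 1.68 for H2BC5, 1.63 for CA8, 1.39 for NUAK2, 1.13 for NDRG1, 0.84 for MT1X, 0.76 for COL6A1, 0.67 for HERPUD1, 0.66 for GADD45A, 0.65 for TNKS2, 0.62 for KRT18, 0.60 for ADPRS, 0.56 for HBEGF, 0.53 for MUC1 and 0.46 for CFLAR. Among genes with a lower effect it was -2.91 for DUSP6, -2.70 for PTX3, -1.81 for LTB, -1.80 for CXCL1, -1.69 for AREG, -1.67 for CLDN1, -1.53 for BIRC3, -1.40 for BIK and NRG1, -1.35 for EGR1, -1.19 for THBS1, -1.08 for BOK, -0.82 for SPC24, -0.78 for SPC25, -0.74 for GDF15, -0.72 for FANCI, -0.70 for TNFAIP3, -0.63 for TYMS, -0.58 for TUBA1B, -0.46 for PCNA and ACTG1 and -0.33 for FADS1.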

How the results depend on the processing

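Requiring a mean normalized count above 50 gave 128 raised and 13 lowered genes by the 2-fold rule, 70 raised genes outside the interferon lists, and 155 higher and 142 lower effects against OVCAR3. Without a fold threshold these were 983, 777 and 862, with 121 interferon genes, and 696 and 825 against OVCAR3. At an adjusted p below 0.05, 461 genes were lowered at any fold. The replicate block gave 254 raised and 40 lowered genes by the 2-fold rule, 1261 and 1109 at any fold, and 295 and 242 against OVCAR3, so none of these counts moved by over 1.5 times; the list counts that did are given above.

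With 1 library left out, the 2-fold rule raised 227 to 260 genes (76 to 81 interferon genes and 151 to 180 others) and lowered 33 to 56, the any-fold rule raised 714 to 1034 and lowered 493 to 861, and effects against OVCAR3 were higher for 240 to 288 and lower for 206 to 253. PARP1 and PARP2, not called, ranged from -0.072 to 0.033 and from -0.094 to 0.072 on the log2 scale in such fits. DESeq2 lowered 18 ribosomal protein genes, against 10. Of 1729 values of genes chosen by the naming rule under alternatives, 1590 kept direction and call, 132 (28 genes) lost the call and 7 (PARP1 and PARP2) changed sign. The causes were not tested. Counts below about 10 per library limit rare transcripts, among them interferon genes.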
